A study of Mus musculus with 4 samples.

Results

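The 4 Hox clusters of the mouse were examined for occupancy by Wapal, through 38 Hox genes together with Evx1 and Evx2, the even-skipped homologues at one end of HoxA and of HoxD. These 40 genes were found by symbol in the annotation of the mm9 genome, among 22350 protein-coding genes on chromosomes 1 to 19 and X. Each cluster was taken from the first to the last base of its listed genes, and a window ran 500 kb further on either side. Of 8323 Wapal-binding sites, 36 had their centre in these windows and 9 had it inside a cluster.

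The sites came from biotin-mediated ChIP-seq in mouse embryonic stem cells (ESCs) under standard conditions. The FB Wapal cells were 2 clones engineered to carry a Wapal protein that the ligase BirA biotinylates, so that streptavidin beads recovered it with its crosslinked DNA. The control was 1 line that expressed BirA without tagged Wapal, and 1 input library of ESC DNA served as the background for calling regions. The authors deposited 1 list of regions for both clones together and 1 list for BirA, so no value had a spread between replicates and no test was made. Each region carried a MACS score, which grows as the p-value of the region falls (10 times the negative log10). The score ran from 50.0 to 685 over all sites, with a median of 81.4. The lists give no read counts for single regions. An FB Wapal region counted as a site when it shared no base with a BirA region.

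Hox genes encode homeodomain transcription factors that give cells their position along the head-to-tail axis of the embryo. Their order in a cluster follows their order of use, so low-numbered paralogue groups act toward the head and high-numbered groups toward the tail and the tips of the limbs. In ESCs the clusters are textbook targets of Polycomb repression. Wapal releases the cohesin ring from chromatin. CTCF, a zinc-finger protein with a directional DNA motif, is the best known factor at which cohesin stops, and CTCF binding between Hox genes separates parts of a cluster in differentiating cells.

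The DNA at 7 of the 9 sites inside the clusters was read from mm9 around the closest match to the CTCF core motif, with at most 2 mismatches, on either strand. The matches are shown because the sites differ in their number of mismatches and in their strand. Each line is written 5′ to 3′ on the strand of the match, and capitals mark the 12 bases that were compared with the motif. The site between the first annotated start of Hoxd3 and that of Hoxd4 is cut to 30 bases since its match lies in an annotated exon. The last pair of lines gives sites outside the clusters that hold the motif without a mismatch, for comparison.
Hoxc5 start site, chr15:102844103-102844174, plus strand: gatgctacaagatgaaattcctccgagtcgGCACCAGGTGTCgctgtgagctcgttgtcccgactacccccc
Hoxd3 and Hoxd4 site, chr2:74553969-74553998, plus strand: gagctttgtCCAGGAGGAGGCgctgtagga
Hoxa11 and Hoxa13 site, chr6:52207090-52207161, plus strand: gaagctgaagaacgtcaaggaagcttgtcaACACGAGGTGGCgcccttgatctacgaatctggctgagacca
Hoxb13 and Hoxb9 site, chr11:96085291-96085362, minus strand: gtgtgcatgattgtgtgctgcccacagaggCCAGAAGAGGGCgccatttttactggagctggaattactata
Hoxb9 and Hoxb8 site, chr11:96140232-96140303, plus strand: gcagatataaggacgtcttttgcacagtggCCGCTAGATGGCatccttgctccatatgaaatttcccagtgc
Hoxc9 and Hoxc8 site, chr15:102817948-102818019, minus strand: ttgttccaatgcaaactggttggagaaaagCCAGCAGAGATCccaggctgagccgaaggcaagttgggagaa
Hoxd13 and Hoxd12 site, first match, chr2:74510669-74510740, minus strand: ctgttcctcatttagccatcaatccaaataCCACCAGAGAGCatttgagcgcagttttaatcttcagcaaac
Hoxd13 and Hoxd12 site, second match, chr2:74511205-74511276, minus strand: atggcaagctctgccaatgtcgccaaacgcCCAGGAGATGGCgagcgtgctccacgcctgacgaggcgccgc
Skap2 side of HoxA, chr6:51808037-51808108, minus strand: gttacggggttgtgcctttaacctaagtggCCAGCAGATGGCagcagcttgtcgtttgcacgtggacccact
Hoxd1 side of HoxD, chr2:74989200-74989271, minus strand: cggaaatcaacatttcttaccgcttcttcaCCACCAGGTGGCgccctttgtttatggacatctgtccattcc

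All 4 clusters held Wapal sites, between their genes or within the annotated span of one. HoxA held 2 sites in 156 kb (chr6:52112350-52268372), HoxB held 3 in 174 kb (chr11:96055630-96229570), HoxC held 2 in 116 kb (chr15:102751534-102867274) and HoxD held 2 in 112 kb (chr2:74491049-74603200). Together this was 16.1 sites per Mb, against 6.75 per Mb in the 500 kb on either side and 3.26 per Mb over the sequenced genome. The clusters are also crowded with genes, with 78.9 protein-coding 5′ ends per Mb against 8.74 in the genome. Counted per gene the clusters had the lowest value, with 20.5 sites for every 100 protein-coding genes against 55.1 in the flanks and 37.2 in the genome. None of the BirA regions had its centre in a window. The nearest one lay 703 kb from HoxA, and the others were 1.41 Mb from HoxB, 2.58 Mb from HoxD and 3.01 Mb from HoxC.

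**Figure D1:**
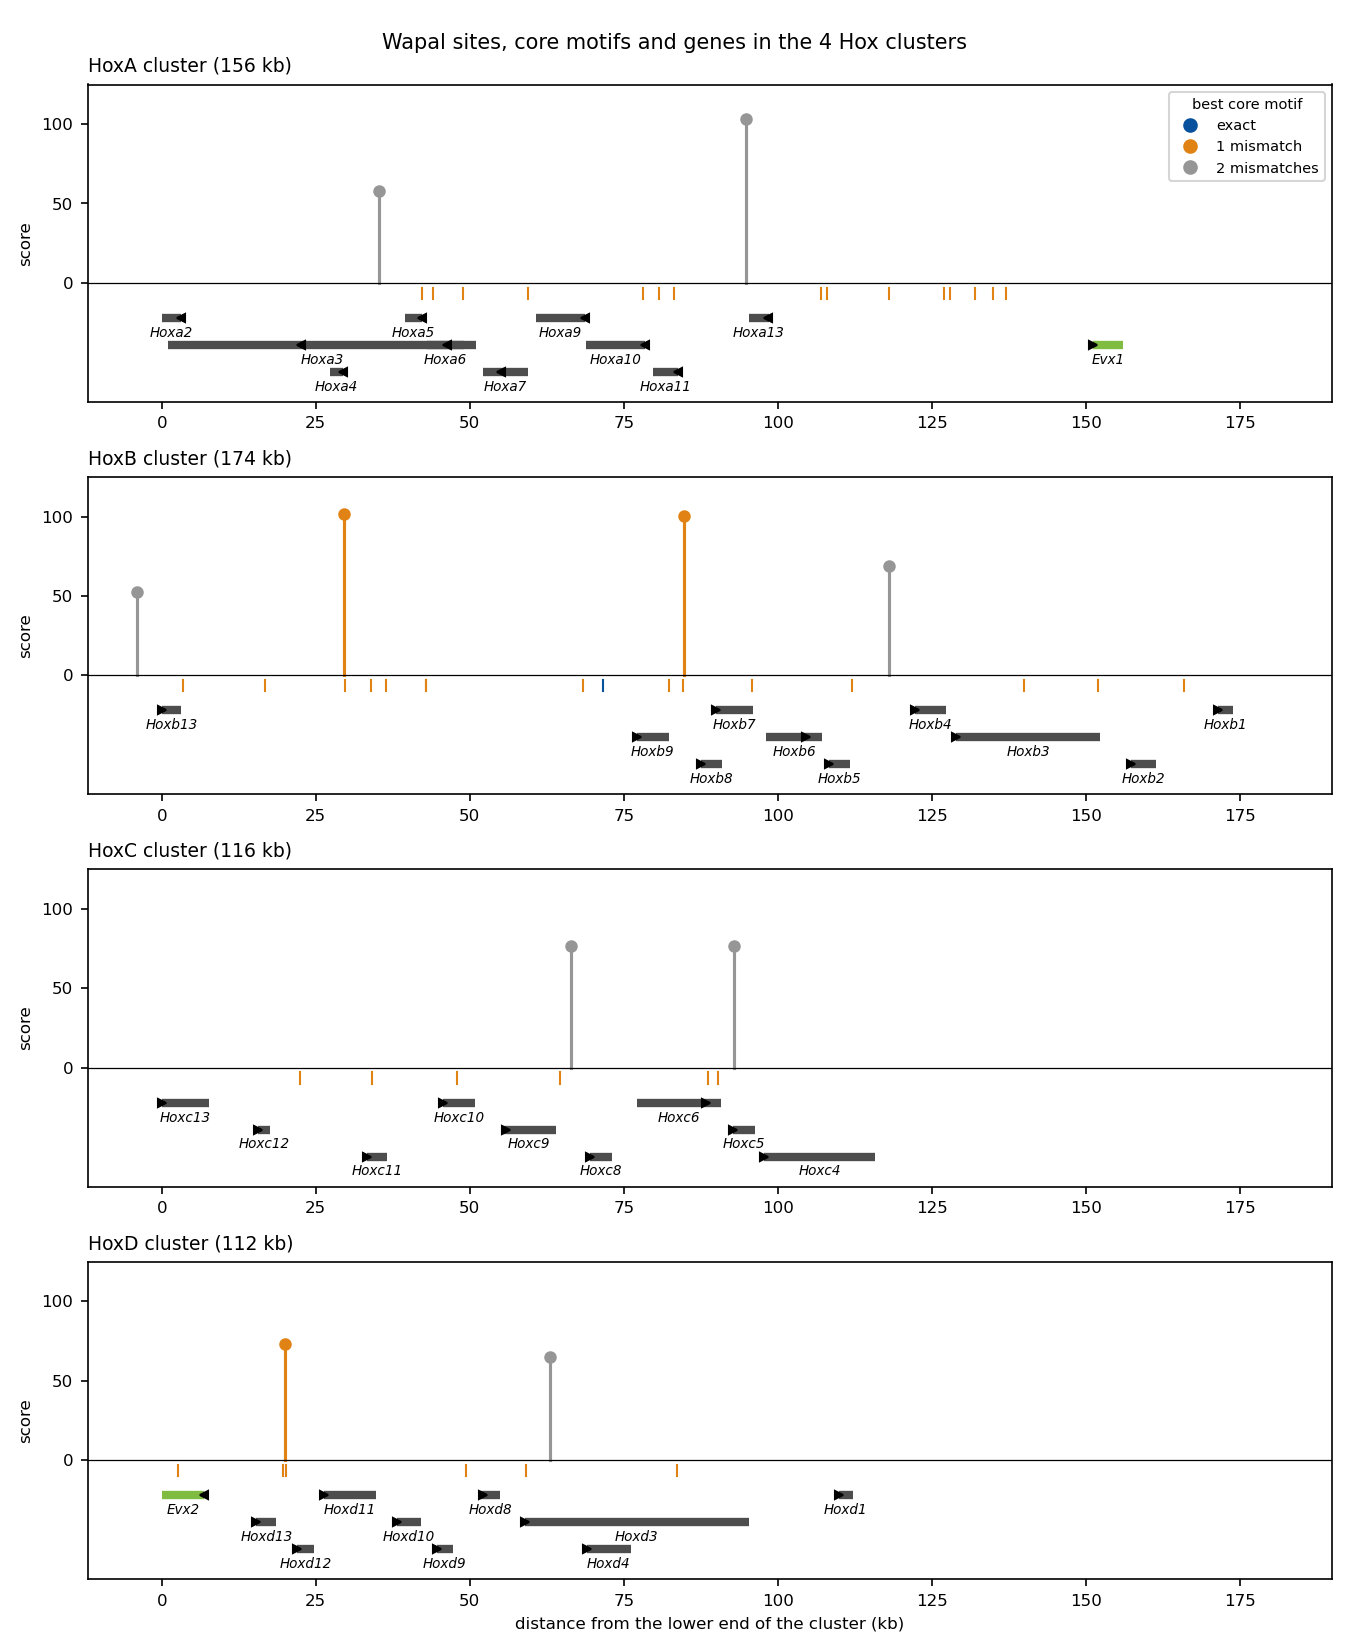
Wapal sites (stems, with the MACS score on the vertical axis), CTCF core motifs with at most 1 mismatch (short ticks) and genes (bars, with an arrowhead at the start site nearest to a Wapal site) along each Hox cluster, in kb from its lower genomic end. The 9 sites inside the clusters score between 57.6 and 103, and the stem to the left of Hoxb13 is a site 3.38 kb outside HoxB.

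The sites inside the clusters had middling scores. Their scores ran from 57.6 to 103 with a median of 76.5, and the strongest of them ranked 2699 of 8323. Their widths ran from 789 to 1538 bp with a median of 1025 bp, against a median of 812 bp over all sites. In base composition they ranged from 31.9 to 54.6% GC, with a median of 49.8% against 44.3% over all sites.

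Near the genes of paralogue group 4 every cluster had a site, a pattern noticed after the positions were seen. In HoxA the site (chr6:52147110-52147986, score 57.6) lay between Hoxa4, active in the neck vertebrae, and Hoxa5, needed for the airways. It was 5.36 kb upstream of a Hoxa4 start site and 6.60 kb downstream of the Hoxa5 start, within an intron of the long annotated span of Hoxa3. In HoxB the site (chr11:96172809-96173664, score 68.9) lay between Hoxb5 and Hoxb4, the latter known for its role in blood stem cells. It was 4.33 kb upstream of the Hoxb4 start and 8.90 kb past that of Hoxb5. In HoxC the site (chr15:102843698-102845235, score 76.9) covered the annotated start of Hoxc5. At 1538 bp it was the widest of the 9, and it lay 4.13 kb upstream of the nearest Hoxc4 start and 3.79 kb past the nearest Hoxc6 start. In HoxD, where the mouse has no group 5 to 7 genes, the site (chr2:74553654-74554678, score 65.2) lay 5.36 kb upstream of the nearest Hoxd4 start. It was 3.67 kb past the first annotated start of Hoxd3, within the annotated span of that gene. Its centre was also within 2 kb of the start of a gene not annotated as protein-coding, so it counted as a promoter site. The nearest start of Hoxd8 was 10.4 kb away, with the site past it. In all 4 of these sites the closest core match had 2 mismatches and lay on the strand from which the Hox genes are transcribed. Over all 9 sites inside the clusters 5 had their closest match on that strand, and a match with 2 mismatches is common in regions outside the sites (50.2% of those of the same width 5 kb away).

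At the high-numbered end, HoxA and HoxD each had a site inside the cluster beside their group 13 gene. HoxB also had one beside Hoxb13, 3.38 kb upstream of it and just outside the cluster as defined here. The HoxA site (chr6:52206772-52207647, score 103) lay between Hoxa11, which patterns the forearm, and Hoxa13, which patterns the digits and the urogenital tract. It was 3.15 kb from the nearest Hoxa13 start, on the side into which Hoxa13 is transcribed, and 10.6 kb upstream of Hoxa11. This was the highest score inside any cluster, although its closest core match had 2 mismatches. The HoxD site (chr2:74510446-74511713, score 73.3) lay between Hoxd13 and Hoxd12, both genes of the distal limb. It was 1.27 kb upstream of the Hoxd12 start and 4.08 kb past the Hoxd13 start. It held 2 core matches with 1 mismatch, both on the minus strand, opposite to the Hox genes.

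HoxB and HoxC had further sites in between. In the long interval between Hoxb13, a gene of the tail bud and prostate, and Hoxb9, a site (chr11:96084876-96085664, score 101) was 29.6 kb from the lower end of the cluster. It was the one site inside a cluster that was not the nearest site of any Hox gene, and at 31.9% its GC content was the lowest. The next HoxB site (chr11:96139883-96141066, score 101) lay 2.15 kb upstream of a start of Hoxb8 and 7.05 kb past a start of Hoxb9. Both of these HoxB sites held a core match with 1 mismatch, the first on the minus and the second on the plus strand. In HoxC a site (chr15:102817498-102818576, score 76.5) lay 2.48 kb upstream of Hoxc8, a gene of the thoracic segments. It was 10.0 kb past the nearest start of Hoxc9 and held a match with 2 mismatches on the minus strand. Sites inside a cluster were separated by 25.1 kb in HoxC, 41.9 kb in HoxD, 58.8 kb in HoxA, and 31.7 and 54.2 kb in HoxB. The median gap between neighbouring sites in the genome was 155 kb. A gap inside a cluster cannot exceed the length of the cluster, 112 kb in HoxD and 116 kb in HoxC. These gaps are therefore not a like comparison with that median. The stretches without a site that crossed the ends of the clusters ran from 32.6 to 605 kb.

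Within 10 kb of a start site, 18 of the 40 Hox and Evx genes had a Wapal site. This is 45.0% (95% Wilson interval 30.7 to 60.2), against 12.3% of all protein-coding genes. At 20 kb the count was 30 of 40 against 22.4%, and at 50 kb it was 36 of 40 against 42.5%. Close to the promoter the share was near the background, with 2 of 40 genes having a site within 2 kb against 3.31% of all protein-coding genes. The median distance was 10.5 kb for the 40 genes and 65.3 kb for all protein-coding genes. The genes are not independent of one another, since 9 sites were the nearest ones to all 40 and a single site was the nearest one of up to 6 genes. With a score of at least 100, 3 sites were left inside the clusters and 4 of the 40 genes lay within 10 kb of one, against 4.23% of protein-coding genes.

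**Figure D2:**
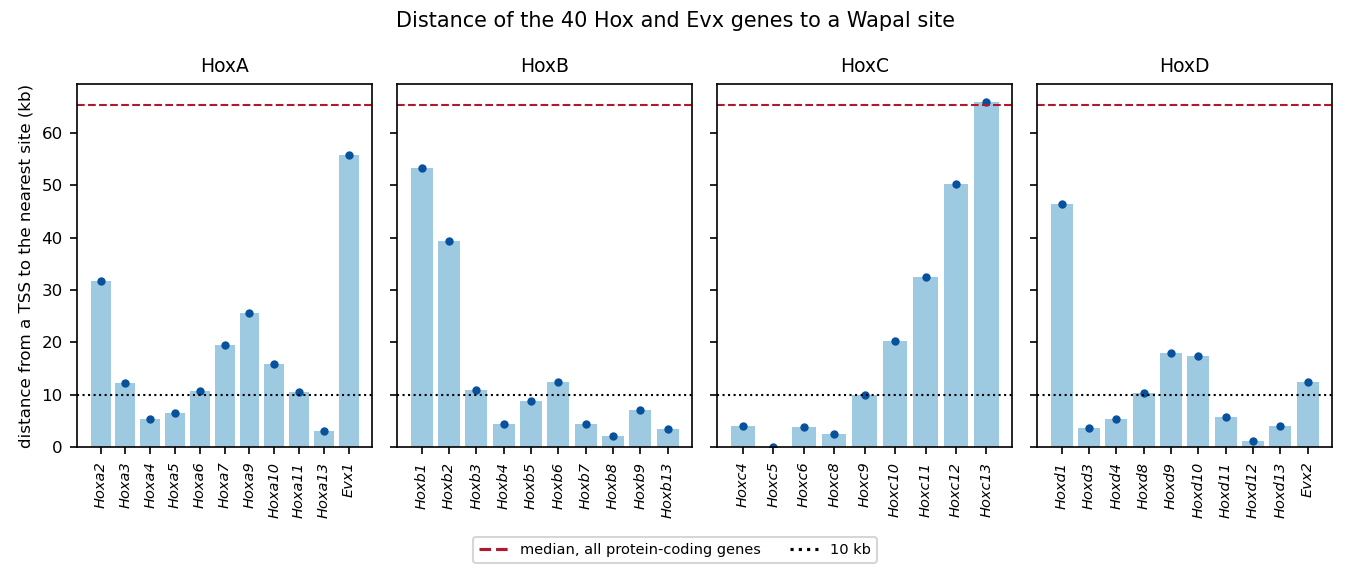
Distance in kb from a start site of each of the 40 Hox and Evx genes to the edge of the nearest Wapal site (bars with a point at their end), in order of paralogue group with Evx last. The dashed line at 65.3 kb is the median of all protein-coding genes and the dotted line marks 10 kb; Hoxc13 at 66.0 kb is the one gene above the dashed line.

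By cluster, 3 of 11 genes in HoxA, 6 of 10 in HoxB, 4 of 9 in HoxC and 5 of 10 in HoxD had a site within 10 kb. The Wilson intervals of these shares ran from 9.75 to 56.6% in HoxA and from 31.3 to 83.2% in HoxB. They treat the genes as independent, although neighbouring genes shared their nearest site. The shares are therefore given as a description, and a difference between clusters was not tested. In HoxA the 3 genes were Hoxa4, Hoxa5 and Hoxa13. HoxB had Hoxb4, Hoxb5, Hoxb7 at 4.50 kb, Hoxb8, Hoxb9 and Hoxb13. For Hoxb13 the site (chr11:96050873-96052253, score 52.3) was the first one outside the cluster and lay 3.38 kb upstream of the gene, with a core match of 2 mismatches. In HoxC these were the neighbouring genes Hoxc4, Hoxc5, Hoxc6 and Hoxc8, and in HoxD they were Hoxd3, Hoxd4, Hoxd11 at 5.74 kb, Hoxd12 and Hoxd13. The limit of 10 kb cut through a group of close values, since the nearest gene inside it was Hoxb5 at 8.90 kb. Just outside it stood Hoxc9 at 10035 bp, Hoxd8 at 10445 bp, Hoxa11 at 10559 bp, Hoxa6 at 10735 bp and Hoxb3 at 10976 bp.

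The genes farthest from a site stood at the ends of the clusters. In HoxA they were Evx1 at 55.8 kb and Hoxa2, a gene of the hindbrain and second branchial arch, at 31.7 kb. Hoxb1, which patterns the hindbrain, was 53.4 kb from a site and its neighbour Hoxb2 was 39.3 kb away. Hoxd1 stood at 46.4 kb, while its amplicon for ChIP-qPCR (chr2:74600832-74601065), which covers the start, lay 46.2 kb from the site below it and 292 kb from the site above it. HoxC was reversed against HoxB and HoxD, since its high-numbered genes were the distant ones. From Hoxc9 at 10.0 kb the distance grew through Hoxc10 at 20.3 kb, Hoxc11 at 32.6 kb and Hoxc12 at 50.3 kb to Hoxc13, a gene of hair and nails, at 66.0 kb. The remaining genes, such as Hoxa9 at 25.7 kb, Hoxa10 at 15.9 kb, Hoxd9 at 17.9 kb, Hoxd10 at 17.4 kb and Evx2 at 12.5 kb, lay between sites. Of these remaining genes Hoxa3 stood at 12.2 kb, Hoxa7 at 19.5 kb and Hoxb6 at 12.5 kb.

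Outside the clusters 27 sites lay within 500 kb, in numbers that differed by side. HoxA had 3 sites below its Hoxa2 end and 2 above its Evx1 end, and HoxB had 5 on each side. HoxC had 3 beyond Hoxc13 and 6 beyond Hoxc4. HoxD had 3 beyond Hoxd1 and 0 beyond Evx2. The first site on the Evx2 side (chr2:73904572-73905262, score 127) was 586 kb from the cluster, outside the window, and 155 kb from the nearest start of Atp5g3, which encodes a subunit of ATP synthase. The stretch without a site from there to the Hoxd13 and Hoxd12 site was 605 kb, longer than 88.2% of the 8303 gaps between neighbouring sites. At the Hoxd1 end the stretch was 338 kb, longer than 74.3% of gaps. A gap picked because it crosses a fixed point is more often a long one, so these ranks are not a like comparison. At the other clusters the stretches across the ends ran from 32.6 kb below HoxB to 319 kb above HoxA.

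**Figure D3:**
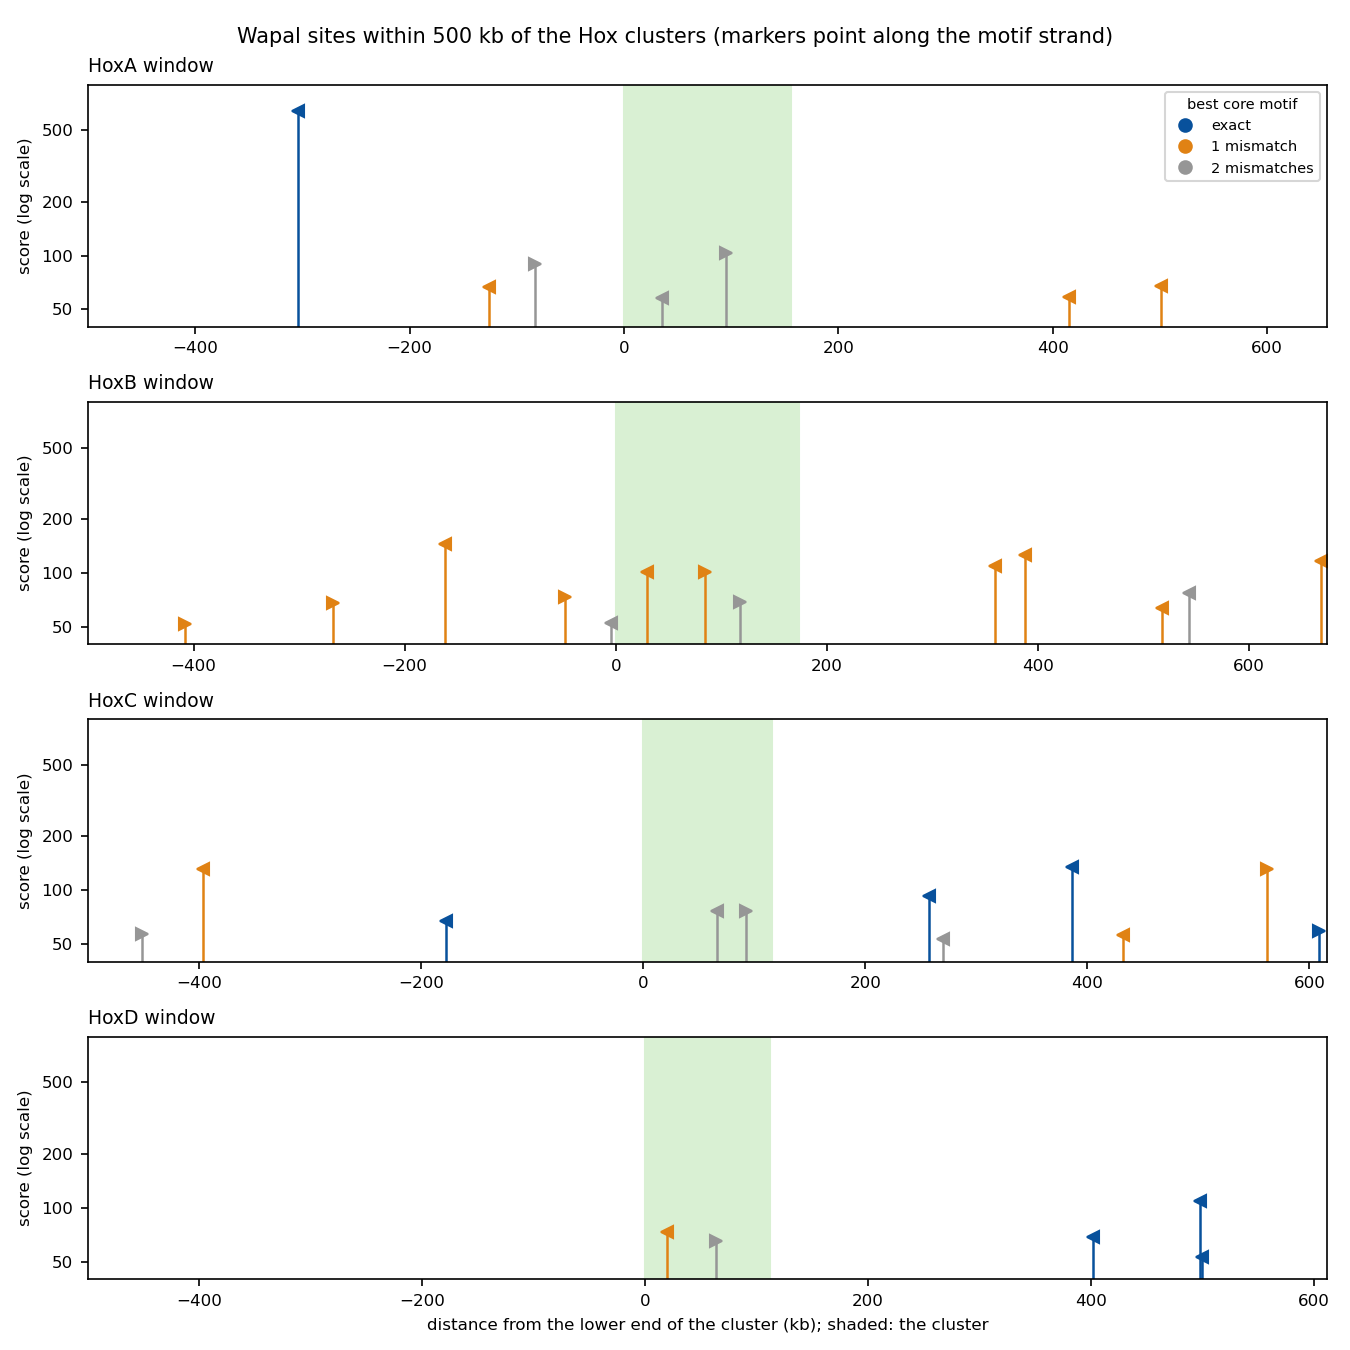
Wapal sites in the 4 windows, by distance in kb from the lower end of the cluster and MACS score on a log axis, coloured by the mismatches of the closest CTCF core match and pointing along its strand (right for plus). The shaded cluster of HoxD has no site to its left, and the tallest marker, at 637, lies 304 kb below HoxA.

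One of the flanking sites was among the strongest of the whole list. It lay 304 kb from the Hoxa2 end of HoxA (chr6:51807477-51808289) with a score of 637, which ranked 2 of 8323. It was 154 kb downstream of the start of Skap2, which encodes an adaptor of Src-family kinases, and held an exact core motif on the minus strand. The next scores of the HoxA window were 103 at the site beside Hoxa13 and 89.8 at a site 82.7 kb below the cluster (chr6:52028296-52029633), the first one outside that end. On the Evx1 side the first site (chr6:52527128-52527885, score 58.5) was 259 kb away in an intron of Hibadh, a gene of valine breakdown.

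In the HoxB window the 3 highest scores all lay in the flanks. They were 145 at a site 2.54 kb from a start of Snf8, a subunit of the ESCRT-II complex (chr11:95892770-95893657), and 127 and 117 at sites on the Hoxb1 side. The site of 127 (chr11:96443141-96443873) was in an annotated exon of Skap1, the T cell relative of Skap2, and that of 117 (chr11:96722928-96723871) was 7.48 kb from a start of Copz2, a coat protein gene. The first site beyond Hoxb1 (chr11:96414216-96415073, score 109) was 185 kb away and also within Skap1. Skap1 thus held 4 of the 5 sites on that side.

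The highest scores of the HoxC window were 135, 132 and 131, again all in the flanks. The first (chr15:103137314-103138164) was 2.71 kb from a start of Gpr84, a receptor gene, and held an exact core motif. The next (chr15:103312634-103313565) was in an intron of Nckap1l, which encodes a blood cell subunit of an actin regulator, and the last of them (chr15:102355266-102356219) was 214 bp from a start of Npff, a neuropeptide gene. The first sites outside the cluster were 178 kb beyond Hoxc13 (chr15:102572790-102573654, score 67.2) and 140 kb beyond Hoxc4 (chr15:103007250-103009039, score 92.5). In the HoxD window the highest scores were 109, 73.3 and 68.8. The site of 109 (chr2:74988906-74989534) lay 386 kb beyond Hoxd1, the site of 73.3 was that between Hoxd13 and Hoxd12, and the site of 68.8 (chr2:74892626-74893791), 289 kb beyond Hoxd1, was the first outside that end. For the sites of 109 and 68.8 the nearest protein-coding start was that of Mtx2, a mitochondrial import gene, at 282 kb and 186 kb.

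Of the protein-coding genes in the flanks, 12 of 49 had a site within 10 kb, against the same 12.3% of all protein-coding genes. All of them lay around HoxB (4 of 19) and HoxC (8 of 24). Around HoxA 0 of 4 and around HoxD 0 of 2 had one, which is few genes to set against that share.

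Sites inside the clusters and around them were compared for the core motif. With at most 1 mismatch it was in 3 of the 9 sites inside the clusters, or 33.3% (95% Wilson interval 12.1 to 64.6). In the flanks it was in 22 of 27, or 81.5% (63.3 to 91.8), and over all Wapal sites in 74.5%. The intervals inside the clusters and in the flanks overlapped at their ends, and the interval inside lay below the 74.5% of all sites. No test was made on these 9 sites, so the differences are given as a description. An exact motif was in 0 of 9 sites inside, 8 of 27 in the flanks and 28.3% of all sites. At most 2 mismatches were met by all 36 sites of the windows and 96.5% of all sites. That last setting is loose, since 50.2% of regions of the same width 5 kb above each Wapal site met it, and 6 of 9 beside the sites inside the clusters did. With at most 1 mismatch these shares were 10.3% and 0 of 9.

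**Figure D4:**
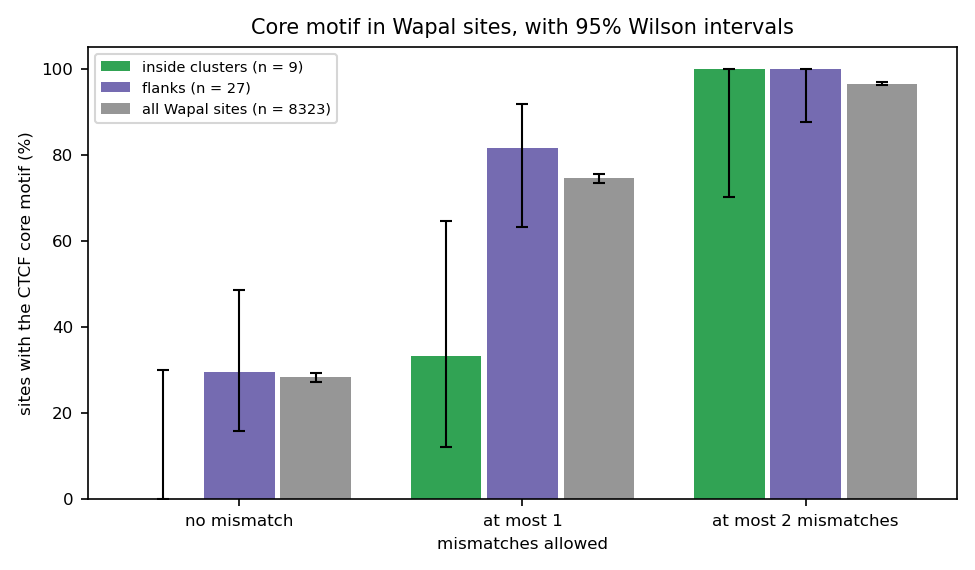
Share of Wapal sites with the CTCF core motif in percent, for 9 sites inside the clusters, 27 in the flanks and all 8323, by the number of mismatches allowed. Error bars are 95% Wilson intervals; with at most 1 mismatch the share is 33.3% inside, 81.5% in the flanks and 74.5% over all sites.

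Most core motifs of the clusters lay outside a site, as did most in the genome. The 4 clusters held 1 exact motif in all, 1.79 per Mb against 4.98 per Mb in the genome, and it lay in HoxB between Hoxb13 and Hoxb9, 12.7 kb from the nearest site. In the genome 18.9% of exact motifs were inside a site. With at most 1 mismatch the clusters held 43 motifs, or 77.1 per Mb against 84.2 in the genome, and 4 of these were inside a site. That is 9.30% (95% Wilson interval 3.68 to 21.6) against 3.32% in the genome. Of the 4 motifs 2 lay in the same HoxD site, while the interval treats all motifs as independent. Sites were also denser in the clusters, at 16.1 per Mb against 3.26 in the genome, so the 2 shares are not a like comparison. HoxA had 15 motifs with at most 1 mismatch and HoxC 6, and in neither cluster was one inside a site. The Wilson intervals reached up to 20.4% in HoxA and 39.0% in HoxC and included the genome share of 3.32%. So few motifs do not set these clusters apart from the genome. In HoxA 8 of the 15 lay between Hoxa13 and Evx1, a stretch that held no site.

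The strand of the motif was uneven in the flanks. Among the 22 flanking sites with at most 1 mismatch, 17 had the closest match on the minus strand and 5 on the plus strand, while over all Wapal sites with the motif 3101 were on the minus and 3098 on the plus strand. Read toward or away from the cluster, 15 of the 22 pointed toward it. On the sides of higher coordinates 12 of 14 did so, which were the Evx1 side of HoxA, the Hoxb1 side of HoxB, the Hoxc4 side of HoxC and the Hoxd1 side of HoxD. On the sides of lower coordinates it was 3 of 8. All 3 sites beyond Hoxd1 held an exact motif that pointed toward the cluster. The sites at 386 kb (score 109) and 387 kb (chr2:74990333-74991202, score 53.0) from HoxD lay side by side, so they are hardly separate places.

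The miRNA genes within the clusters share their sites with the Hox genes beside them. Mir615 began 106 bp past the end of the site at the Hoxc5 start. Mir10a, beside Hoxb4, was 4.82 kb and Mir10b, beside Hoxd4, was 9.45 kb from the same sites that lay upstream of those Hox genes. Mir196a-1 at 13.4 kb, Mir196a-2 at 13.7 kb and Mir196b at 26.6 kb were farther off. Thus 3 of the 6 had a site within 10 kb and 6 of 6 within 50 kb. The shares of all protein-coding genes were 12.3% and 42.5%. Since the sites are the same, these counts add nothing separate to those of the Hox genes. Genes of related function outside the clusters were read against the same background of 12.3%. Of the 9 TALE genes, whose homeodomain proteins bind DNA together with Hox proteins, 2 had a site within 10 kb, namely Meis1 at 5.27 kb and Meis2 at 5.39 kb, both upstream. The Cdx genes, regulators of Hox transcription, had 0 of 3 within 10 kb, with Cdx2 nearest at 12.3 kb. The ParaHox genes Gsx1, Gsx2 and Pdx1 had 0 of 3, at 131, 67.1 and 49.7 kb. Gsx1, Pdx1 and Cdx2 had the same nearest site on chromosome 5, with a score of 50.0 at the low end of the list. Their distances are therefore not separate observations.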

How the data were processed

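The authors aligned the reads of 2 FB Wapal clones, 1 BirA line and 1 input to mm9 with Bowtie, kept reads with a unique alignment and called regions against input with MACS 1.4.2. The lists the authors deposited hold, for each region, a position and the MACS score, which was not normalized between lists. How the regions of both clones were joined is not given in the sources used here. The FB Wapal list had 8497 regions and the BirA list 266. From the FB Wapal list, 174 regions that overlapped a BirA region by 1 bp or more were removed. This left slightly more sites than the paper reports after its own subtraction of BirA regions. The lists hold no counts, so the number of reads behind a single region was not known, and intervals cover counting error only.

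A site was placed by its centre. Distances ran from the edge of a site to the nearest start of any transcript of a gene in GENCODE M1, which is annotated on mm9. A promoter was taken as 2 kb around a start. The CTCF core motif of 12 bases was searched on both strands, with at most 1 mismatch in the main setting. Genes named are those with a site within 10 kb, the nearest and farthest of each cluster and those beside a site; sites named are those inside a cluster, the first outside each end and the 3 highest scores of each window. Genes and lists were chosen with earlier results of these data known. A further Hox gene and some sequences are not reported here. No test was run, since each group had 1 list. The functions were tested on simulated data. Python 3.11.15, numpy 2.4.6, scipy 1.17.1, pysam 0.24.0, samtools 1.23.1 and matplotlib 3.10.9 were used.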

Additional observations from a re-analysis of the deposited data

How the results depend on the processing

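A score of at least 100 was met by 2878 of all sites. It left 12 sites in the Hox windows, 3 inside the clusters and 4 genes with a site within 10 kb, with a median distance of 88.7 kb and a density of 2.63 sites per Mb in the windows. In the genome the same setting gave 1.13 sites per Mb, and 4.23% of protein-coding genes within 10 kb at a median of 225 kb. It raised the share of window sites with the core motif to 91.7% of those 12, against 78.2% of all sites with that score. Flanks of 250 kb and 1 Mb gave 19 and 58 sites, at densities of 7.43 and 7.09 per Mb, and with 1 Mb the windows held 1 BirA region. Limits of 2, 20 and 50 kb gave 2, 30 and 36 genes. The core motif was in 22.2% of window sites with no mismatch and in 100% with at most 2. The other 15 of 29 alternatives stayed within 1.5 times the value or within its interval, among them no removal of BirA regions, removal within 1 kb, any overlap in place of the centre, a cluster extended by 10 kb and the 5′ end of the gene alone.

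No paired analysis was possible because the deposited list joins both clones and no result came from a test; no replicate was left out for the same reason.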
